A study of Mus musculus with 12 samples.

Results

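CC chemokines are small secreted proteins, named for a pair of adjacent cysteines, that attract leukocytes along concentration gradients through G protein-coupled receptors of the CCR family. Transcripts of 10 of them, chosen by gene name (Ccl2, Ccl3, Ccl4, Ccl7, Ccl8, Ccl12, Ccl17, Ccl20, Ccl22 and Ccl27a), were followed in mouse skin among the 53465 gene identifiers that were counted. The 12 bulk RNA sequencing libraries form 4 groups of 3: ultraviolet B (UVB) irradiated skin of mice with the DE2 form of Foxp3, irradiated skin of Foxp3 wild-type (WT) mice, untreated DE2 skin and untreated WT skin. Foxp3 is the transcription factor of regulatory T cells, and the series title writes the altered form as Foxp3dExon2, the labels as Foxp3-E2 and the protocol as Foxp3-DE2, taken here as 1 genotype. Irradiated skin received 6 doses of UVB on a shaved area of the flank, at 200 mJ/cm2 in the sample labels and 100 mJ/cm2 in the protocol, while the untreated skin came from another site and carries no label on shaving. Wherever irradiated skin is set against untreated skin, UVB cannot be told apart from site, or from any difference in shaving. Strain, age and sex carry no label, and nothing links a library to its animal. The p-values therefore reflect variation among libraries, and 2 libraries may come from the same mouse. By its title the study asked about skin inflammation that UVB sets off in mice with the altered Foxp3.

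Total counts ran from 2809142 to 4741726 per library. Foxp3 had 8 counts in the irradiated DE2 libraries together and 0 in each of the other groups, and a gene-level count cannot show whether an exon is missing. All 6 keratinocyte markers were counted in every group, as the skin label requires. The untreated DE2 libraries stood apart: hair follicle markers took 0.00795% to 0.0561% of their counts, against 0.959% to 1.67% in untreated WT, and skeletal muscle markers took 4.64% to 7.81%, against 2.33% to 2.82%. Every result that involves untreated DE2 skin rests on those libraries.

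The family divides by role. Ccl3 and Ccl4, also called macrophage inflammatory proteins 1 alpha and 1 beta, attract leukocytes to inflamed tissue, and Ccl3 binds Ccr1. Activated myeloid cells are a main source of both. Ccl2, Ccl7 and the mouse gene Ccl12 encode monocyte attractants that act through Ccr2, and mouse Ccl8 acts through Ccr8. Ccl17 and Ccl22 bind Ccr4, Ccl20 binds Ccr6, and Ccl27a, a product of epidermal keratinocytes, binds Ccr10, a receptor of skin-homing T cells. On chromosome 11 (GRCm38) lie 6 of the genes, Ccl2, Ccl7, Ccl12 and Ccl8 between 82035571 and 82116799 on the plus strand, and Ccl3 (83647844 to 83649355, minus strand) and Ccl4 (83662584 to 83664683, plus strand) further along. Ccl20 lies on chromosome 1, Ccl27a on chromosome 4 and Ccl17 and Ccl22 on chromosome 8.

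RefSeq promoters (GRCm38.p6) were on hand for 7 of the 10 genes, and not for Ccl2, Ccl4 or Ccl7. Of those 7, 4 are shown because they had the clearest shifts between groups (Ccl3, Ccl8 and Ccl27a) or the longest run of NF-kB motif matches (Ccl20). NF-kB is a transcription factor that induces many inflammatory genes. Each sequence is the 250 bases before the start site, read 5′ to 3′ along the gene's strand. Capitals mark matches on either strand to the NF-kB motif GGGNNNNNCC or to the TATA box TATAAA, where N is any base.
Ccl3, chr11:83649379-83649628, minus strand: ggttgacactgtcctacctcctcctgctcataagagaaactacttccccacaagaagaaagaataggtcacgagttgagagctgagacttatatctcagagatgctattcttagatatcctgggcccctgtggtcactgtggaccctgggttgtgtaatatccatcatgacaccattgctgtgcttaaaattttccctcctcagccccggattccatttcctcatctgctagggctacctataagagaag
Ccl8, chr11:82114935-82115184, plus strand: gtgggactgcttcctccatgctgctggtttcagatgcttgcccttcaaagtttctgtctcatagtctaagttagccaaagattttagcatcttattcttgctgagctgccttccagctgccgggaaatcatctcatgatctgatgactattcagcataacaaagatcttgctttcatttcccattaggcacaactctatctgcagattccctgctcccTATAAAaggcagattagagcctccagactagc
Ccl20, chr1:83116516-83116765, plus strand: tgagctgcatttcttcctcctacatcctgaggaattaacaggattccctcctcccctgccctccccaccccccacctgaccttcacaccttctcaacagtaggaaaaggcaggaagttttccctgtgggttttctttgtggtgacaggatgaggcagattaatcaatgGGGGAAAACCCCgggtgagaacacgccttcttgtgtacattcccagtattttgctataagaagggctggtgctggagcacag
Ccl27a, chr4:41774177-41774426, minus strand: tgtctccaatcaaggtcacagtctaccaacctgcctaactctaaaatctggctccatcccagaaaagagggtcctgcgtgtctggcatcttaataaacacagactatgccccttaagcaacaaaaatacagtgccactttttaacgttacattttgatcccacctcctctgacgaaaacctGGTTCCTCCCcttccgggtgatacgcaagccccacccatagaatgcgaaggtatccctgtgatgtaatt
In these windows Ccl3 had no match to either motif, and Ccl8 had a TATA box that starts at -32 and no NF-kB match. Ccl20 had 4 overlapping NF-kB matches on both strands, the first at -82, all within the capitals. Ccl27a had 1 NF-kB match, at -69, in the most upstream of its 3 listed starts. The next start (window chr4:41774102-41774351, not shown) had 2, at -144, which is the same stretch, and at -57. The last start (window chr4:41770213-41770462, not shown) had 0. Of 32536 distinct promoters of this length, 45.98% held an NF-kB match and 12.31% a TATA match, so a match is a description of these letters and not a site of binding.

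Irradiated DE2 skin was set against irradiated WT skin first. Ccl3, Ccl4, Ccl7 and Ccl8 were higher in DE2, by 3.33-fold to 62.1-fold, and no CC chemokine of the 9 tested was lower. Levels are CPM, read counts scaled to a common total and corrected for library composition, and calls are from the quasi-likelihood test of edgeR, adjusted over all genes by Benjamini-Hochberg, at a threshold of 0.05. At that threshold 2.35% of the 15126 genes tested were higher and 0.608% were lower. The median log2 fold change of the 9 was 1.74, beside -0.03 for all genes. Ccl17 was below the low-count filter and was not tested. Both figures describe the genes only, since a gene that is high in 1 group can pass that filter through that group.

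Ccl4 stood at 506, 297 and 181 CPM in the irradiated DE2 libraries, against 5.18, 9.80 and 0.303 CPM in the irradiated WT libraries. The lowest irradiated DE2 library was well above the highest irradiated WT one. The log2 fold change was 5.96 ± 0.79 (approximate SE; edgeR adjusted p = 0.00165). Ccl3, its neighbour and partner ligand, was counted at 272, 150.3 and 67.9 CPM in irradiated DE2, against 4.91, 0.735 and 2.72 CPM in irradiated WT. Again the groups did not overlap, and the fold change was 5.88 ± 0.76 on the log2 scale (edgeR adjusted p = 0.00214). In both genes irradiated DE2 library 1 was the highest and library 3 the lowest. Both calls held in all 22 alternative settings, with log2 fold changes from 5.29 to 6.60 for Ccl3 and from 5.13 to 6.84 for Ccl4. No stretch of 50 bases of either transcript occurs in another annotated gene.

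Ccl8 was at 419, 461 and 633 CPM in irradiated DE2 and at 164, 154 and 136 CPM in irradiated WT. It was the most abundant of the 10 per kilobase of exon in both groups, and the groups lay apart, with a log2 fold change of 1.74 ± 0.42 (edgeR adjusted p = 0.0429). Its library order in irradiated DE2 was the opposite of that of Ccl3 and Ccl4, with library 1 lowest and library 3 highest. The Ccl8 call was lost in 9 of the 22 alternatives, at adjusted p = 0.0761 with total-count scaling and 0.0592 with the muscle share as covariate. It was also lost without irradiated DE2 library 1 (0.0897), 2 (0.116) or 3 (0.137), without irradiated WT library 1 (0.121), 2 (0.0689) or 3 (0.139), and without untreated WT library 1 (0.0593). The log2 fold change stayed between 1.54 and 2.26 throughout.

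Ccl7, a monocyte attractant, had 14.1, 17.3 and 15.6 CPM in irradiated DE2, against 0.818, 5.64 and 2.72 CPM in irradiated WT. These libraries also lay apart, and the log2 fold change was 2.33 ± 0.60 (edgeR adjusted p = 0.0481). The call sat close to the threshold and was lost in 13 of 22 alternatives, with a highest adjusted p of 0.16 and a log2 fold change from 1.89 to 3.14. Settings accounted for 3 of these: total-count scaling (0.0663), only the libraries compared (0.0706) and the hair follicle share as covariate (0.0538). The other 10 were single libraries left out: irradiated DE2 1 (0.109), 2 (0.16) or 3 (0.113), irradiated WT 1 (0.134) or 3 (0.157), untreated DE2 2 (0.0559) or 3 (0.0567), and untreated WT 1 (0.0619), 2 (0.0642) or 3 (0.0715).

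The other Ccr2 ligands were counted at low levels. Ccl2 had 4.06, 4.58 and 6.90 CPM in irradiated DE2 and 0, 4.41 and 0.908 CPM in irradiated WT, with an interval for the log2 fold change of -1.24 to 4.25 (approximate, 95%; edgeR adjusted p = 0.636). Ccl12 had 6.5, 3.13 and 0 CPM in irradiated DE2 and 0.546, 1.23 and 0.605 CPM in irradiated WT (interval -1.14 to 5.11; edgeR adjusted p = 0.562). In both genes the groups overlapped, and the intervals include no change as well as changes of the size seen for Ccl7 and Ccl8. Ccl2 lies within Gm17268 on the opposite strand, which had 0 counts in every library.

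Ccl27a ran the other way without passing the threshold. Its levels were 12.2, 14.5 and 27.6 CPM in irradiated DE2, against 27.3, 90.9 and 46.3 CPM in irradiated WT. The groups met at their edges, and the log2 fold change was -1.62 ± 0.43 (edgeR adjusted p = 0.0583). It passed with DESeq2 (adjusted p = 0.00615), with no low-count filter (8.46e-07), and without irradiated DE2 library 3 (0.046), irradiated WT library 1 (0.0272) or untreated DE2 library 1 (0.0345). Of the 50-base stretches of Ccl27a, 44.98% also occur in near-identical copies (Ccl27b, Gm13306, Gm20878, Gm21586 and Gm21953), so its counts are uncertain wherever copies share reads. Ccl27b itself had 0 counts in all libraries.

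Ligands of Ccr4 and Ccr6 were scarce in irradiated skin. Ccl22 had 4.60, 2.41 and 0.726 CPM in irradiated DE2 and 0.546, 3.68 and 1.82 CPM in irradiated WT, with a log2 fold change interval of -1.66 to 2.39 (edgeR adjusted p = 0.909). Ccl20 had 1.9, 0.482 and 0 CPM in irradiated DE2 and 0.273, 3.43 and 0 CPM in irradiated WT (interval -3.58 to 2.36; edgeR adjusted p = 0.891). Both genes overlapped between groups. Ccl17 had 1 count in irradiated DE2, 1 in irradiated WT, 6 in untreated DE2 and 0 in untreated WT, and it was not tested. Those 6 counts came from all 3 untreated DE2 libraries. They stood 2.44-fold above untreated WT if 3 counts over that group are taken as its floor. That ratio leaves out the counting error of the 6 counts.

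**Figure D1:**
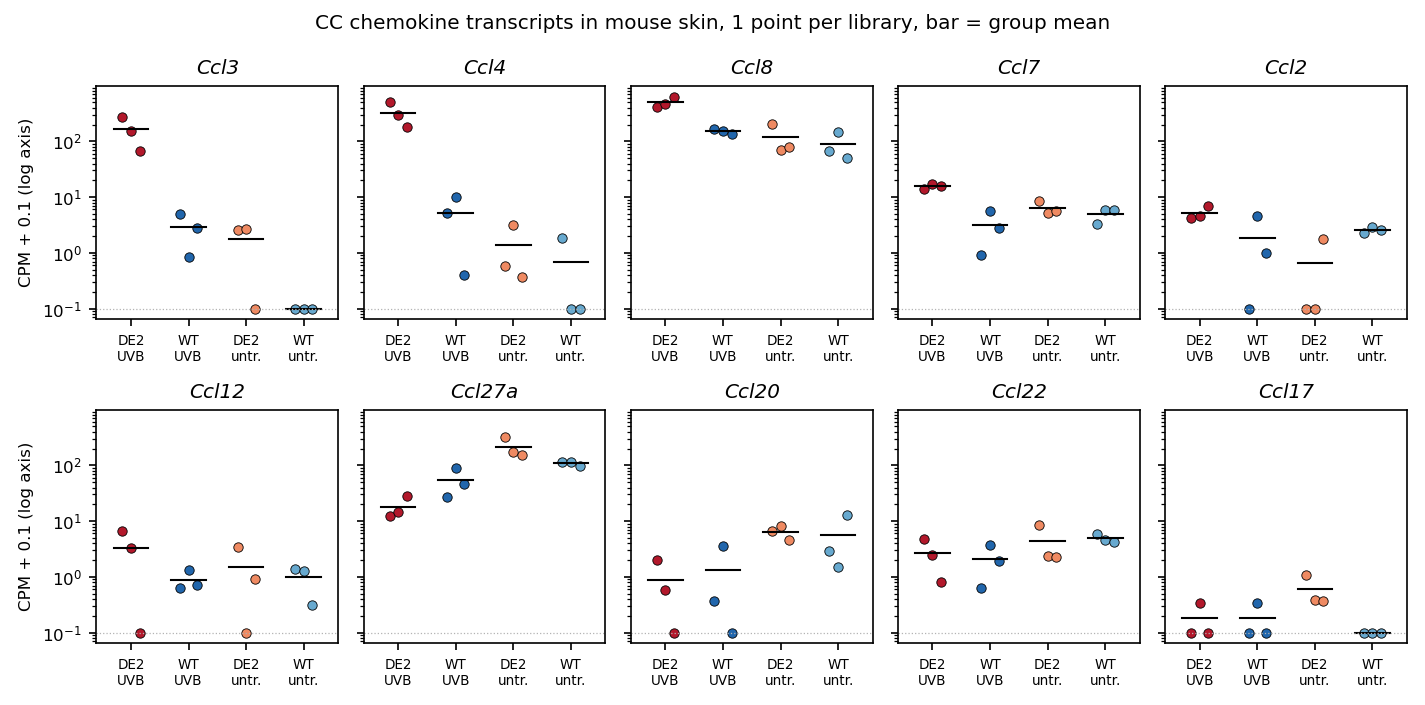
Level of each of the 10 CC chemokines in each library (CPM plus 0.1, log axis), with 1 point per library and a bar at the mean of each group of 3; the dotted line marks 0 counts. Ccl3 and Ccl4 reach 67.9 to 506 CPM in irradiated DE2 libraries and no more than 9.80 CPM elsewhere, while Ccl27a is highest in untreated DE2.

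Within DE2, irradiated skin was next set against untreated skin. Ccl3, Ccl4 and Ccl8 were higher in irradiated skin and Ccl27a was lower, which made 3 higher and 1 lower of 9 tested, where 14.4% of all genes were higher and 13.4% lower. The median log2 fold change of the 9 was 1.29, beside 0.02 for all genes. With total-count scaling the calls over all genes became 2712 higher and 1368 lower, against 2180 and 2022 with composition scaling, and the median of all genes moved to 0.26.

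Ccl4 was at 181 to 506 CPM in irradiated DE2, against 0.485, 3.102 and 0.277 CPM in untreated DE2. The log2 fold change of 8.0 ± 0.92 was the largest called change of the 9 genes in any of the 5 comparisons (edgeR adjusted p = 4.05e-05). Ccl3 was at 67.9 to 272 CPM in irradiated DE2 and at 2.43, 2.54 and 0 CPM in untreated DE2, with a log2 fold change of 6.58 ± 0.80 (edgeR adjusted p = 0.000142). Ccl8 was at 419 to 633 CPM in irradiated DE2 and at 204, 69.7 and 77.5 CPM in untreated DE2, and its log2 fold change was 2.11 ± 0.43 (edgeR adjusted p = 0.00289). For all of these genes every irradiated DE2 library exceeded every untreated one.

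Ccl27a was at 12.2, 14.5 and 27.6 CPM in irradiated DE2, against 325, 171 and 151 CPM in untreated DE2. This keratinocyte chemokine was 12.1-fold lower in irradiated DE2 skin, with no overlap and a log2 fold change of -3.60 ± 0.45 (edgeR adjusted p = 6.16e-05). The keratinocyte markers as a whole took 1.92% to 2.49% of counts in irradiated DE2 and 0.448% to 1.06% in untreated DE2. That sum is mostly Krt14, and the markers were mixed: Krt14 and Krt1 were higher in irradiated DE2, Krt10, a marker of differentiating keratinocytes, was lower (-1.08 ± 0.31; edgeR adjusted p = 0.018), and the other 3 were not called. With the hair follicle share as covariate, which separated irradiated DE2 (0.733% to 1.15%) from untreated DE2 (0.00795% to 0.0561%) with no overlap, all 4 calls were lost. The adjusted p was then 0.28 for Ccl4, 0.713 for Ccl3, 0.857 for Ccl8 with a log2 fold change turned to -0.84, and 0.115 for Ccl27a. With that covariate 0 of all 15126 genes were called higher and 0 lower, so these losses are not particular to the chemokines. With the muscle share as covariate Ccl3 (0.125) and Ccl8 (0.291) were lost, and Ccl4 and Ccl27a kept their calls. Over all genes the muscle share left 542 higher and 104 lower, in place of 2180 and 2022.

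A further 3 genes lay apart between irradiated and untreated DE2 libraries without passing. Ccl2 had 4.06, 4.58 and 6.90 CPM in irradiated DE2 and 0, 0 and 1.66 CPM in untreated DE2 (log2 fold change 3.17 ± 1.33; edgeR adjusted p = 0.0898). Ccl7 had 14.1, 17.3 and 15.6 CPM in irradiated DE2 and 8.49, 5.08 and 5.54 CPM in untreated DE2 (1.29 ± 0.57; edgeR adjusted p = 0.104). Ccl20, a ligand for Ccr6 on dendritic cells and T cells, had 1.9, 0.482 and 0 CPM in irradiated DE2 and 6.55, 8.18 and 4.43 CPM in untreated DE2 (-2.91 ± 1.26; edgeR adjusted p = 0.1). Calls for Ccl2 appeared with DESeq2 (0.0384), limma voom (0.0372), no filter (0.0358) and without untreated DE2 library 3 (0.0251). Calls for Ccl20 appeared with DESeq2 (0.0472), no filter (0.0218) and only the libraries compared (0.04), and Ccl7 passed with limma voom (0.0462). Ccl12 and Ccl22 overlapped between these groups, with log2 fold changes of 1.17 ± 1.29 and -0.70 ± 0.86 (edgeR adjusted p = 0.544 and 0.589).

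In WT mice, irradiated skin gave no called change in any of the 9 genes. Over all genes 0.0198% were higher, which is 3 genes, and 0% lower by edgeR's adjusted p, while 689 genes had an unadjusted p under 0.05, so few genes of any kind passed in this comparison. DESeq2 and limma voom called none of the 9 genes either. The median log2 fold change of the 9 was -0.46, beside 0.03 for all genes. Ccl3 had 30 counts in irradiated WT libraries and 0 in untreated WT libraries, with every irradiated library above the untreated ones (edgeR adjusted p = 0.738). It was 12.4-fold higher when 3 counts over the untreated group are taken as the floor. That ratio leaves out the counting error of the 30 counts. Ccl4 had 5.18, 9.80 and 0.303 CPM in irradiated WT and 1.73, 0 and 0 CPM in untreated WT (log2 fold change 3.11 ± 1.11; edgeR adjusted p = 0.934). Ccl27a had 27.3, 90.9 and 46.3 CPM in irradiated WT and 113, 116 and 95.9 CPM in untreated WT, with no overlap (-0.98 ± 0.40; edgeR adjusted p = 1). For Ccl8 the values were 164, 154 and 136 CPM in irradiated WT and 67.4, 148 and 49.8 CPM in untreated WT, which overlapped (0.77 ± 0.42; edgeR adjusted p = 1). The signs of Ccl3, Ccl4, Ccl8 and Ccl27a were those of the DE2 comparison, but none of these changes passed the test in WT.

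Low counts limit what can be said of the rest in WT skin. Ccl22 had 0.546, 3.68 and 1.82 CPM in irradiated WT and 5.85, 4.40 and 4.15 CPM in untreated WT, which lay apart (-1.23 ± 0.87 on the log2 scale; edgeR adjusted p = 1). Ccl20 had 0.273, 3.43 and 0 CPM in irradiated WT and 2.82, 1.39 and 12.7 CPM in untreated WT, a wide scatter in both (-2.12 ± 1.19; edgeR adjusted p = 1). Ccl2, Ccl7 and Ccl12 had log2 fold changes of -0.46 ± 1.19, -0.68 ± 0.59 and -0.14 ± 1.39 and overlapped between groups (edgeR adjusted p = 1 each).

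**Figure D2:**
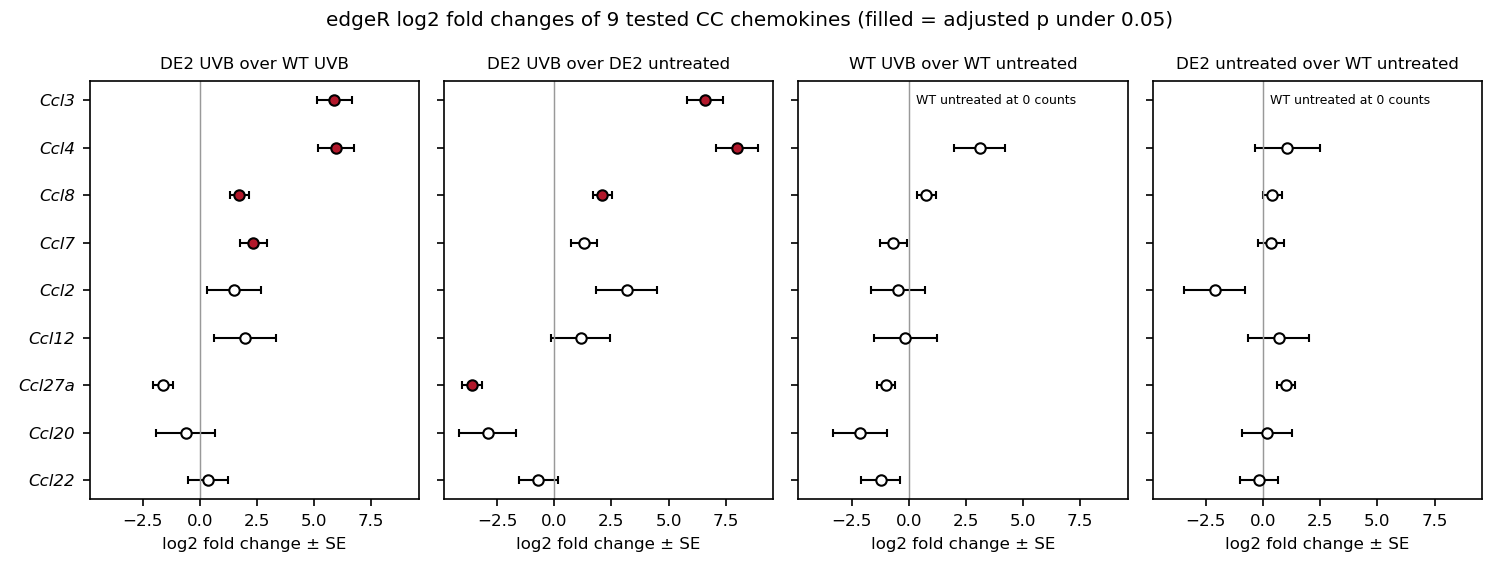
Log2 fold change of the 9 tested CC chemokines (points, bars ± approximate SE) in the 4 comparisons between groups, with filled points where edgeR's adjusted p was under 0.05. In irradiated skin DE2 over WT has 4 filled points, DE2 irradiated over untreated has 4, and the other comparisons have none; Ccl3 is not drawn where untreated WT had 0 counts.

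Whether the change from untreated to irradiated skin differed between DE2 and WT was tested as the interaction of genotype and UVB. That change holds site as well as UVB. Ccl27a was the 1 gene of the 9 that passed: its log2 change was -3.60 ± 0.45 in DE2 and -0.98 ± 0.40 in WT, and the difference was -2.61 ± 0.58 (edgeR adjusted p = 0.0124). Among all genes 4.84% passed with a lower and 5.64% with a higher interaction, and with total-count scaling the counts became 368 and 1220, in place of 732 and 853, while the median over all genes moved from 0.04 to 0.38. The Ccl27a call was lost with the muscle share (adjusted p = 0.149) or the hair follicle share (0.31) as covariate and held in the other 19 alternatives. Over all genes the muscle share left 286 higher and 30 lower interactions, and the hair follicle share left 0 of each. The loss is therefore not particular to Ccl27a. Ccl27a averaged 18.1 ± 8.31 CPM in irradiated DE2, 54.8 ± 32.7 CPM in irradiated WT, 216 ± 94.8 CPM in untreated DE2 and 109 ± 11.0 CPM in untreated WT (SD, n = 3 each), so DE2 held the lower mean at the irradiated and the higher mean at the untreated site.

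For Ccl4 the interaction was 4.89 ± 1.91 on the log2 scale and did not pass (edgeR adjusted p = 0.118), so its rise in DE2 was not shown to differ from that in WT. Untreated WT library 1 held all the Ccl4 counts of its group. Without it that group stood at 0 counts, so the interaction then fitted, 0.70 (0.901), gives no size. With no low-count filter the Ccl4 interaction passed (2.92e-07). The interaction of Ccl8 was 1.33 ± 0.59 (edgeR adjusted p = 0.166), and it passed without untreated DE2 library 1 (0.0136), which had the highest untreated Ccl8 level, without that library and irradiated WT library 2 (0.0169), and with no low-count filter (0.00436). With the hair follicle covariate it turned to -1.37 (0.773). Ccl7 had 1.97 ± 0.82 (0.135), which passed without the same 2 libraries (0.0301), and Ccl2 3.63 ± 1.77 (0.209). Values for Ccl12, Ccl20 and Ccl22 were 1.31 ± 1.91, -0.79 ± 1.68 and 0.53 ± 1.21, with edgeR adjusted p of 0.722, 0.817 and 0.828. No interaction is given for Ccl3, which had no count in untreated WT.

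In untreated skin no CC chemokine of the 9 passed between DE2 and WT, although 11.8% of all genes were higher and 11.2% lower there. With total-count scaling those shares became 788 genes higher and 3011 lower, in place of 1782 and 1695, and the median of all genes moved from 0.03 to -0.37. The median of the 9 was 0.40. Ccl27a had 325, 171 and 151 CPM in untreated DE2 and 113, 116 and 95.9 CPM in untreated WT, with no overlap and a log2 fold change of 0.99 ± 0.40 (edgeR adjusted p = 0.0863). It passed without irradiated WT library 2 (0.0349), with limma voom (0.049), with only the libraries compared (0.0387) and with no filter (0.00176). Ccl3 had 19 counts in untreated DE2, against 0 in untreated WT, and untreated DE2 library 3 was also at 0 (edgeR adjusted p = 0.059). By the same floor Ccl3 was 7.72-fold higher, leaving out the counting error of the 19 counts. It passed with DESeq2 (0.00716), with no filter (1.11e-06) and without untreated DE2 library 3 (0.0303), irradiated DE2 library 1 (0.0394) or 3 (0.0438), or irradiated WT library 2 (0.0376).

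No monocyte attractant passed at this site. Ccl2 had 0, 0 and 1.66 CPM in untreated DE2 and 2.17, 2.78 and 2.49 CPM in untreated WT, which lay apart (-2.13 ± 1.31; edgeR adjusted p = 0.27). Ccl8 had 204, 69.7 and 77.5 CPM in untreated DE2 and 67.4, 148 and 49.8 CPM in untreated WT (0.40 ± 0.42; edgeR adjusted p = 0.532). Ccl7 had 8.49, 5.08 and 5.54 CPM in untreated DE2 and 3.25, 5.80 and 5.81 CPM in untreated WT (0.36 ± 0.57; edgeR adjusted p = 0.695). Both of these overlapped, and so did Ccl4 (1.06 ± 1.41), Ccl12 (0.67 ± 1.34), Ccl20 (0.18 ± 1.10) and Ccl22 (-0.17 ± 0.83), whose edgeR adjusted p ran from 0.636 to 0.929. With total-count scaling the log2 fold changes of Ccl7 and Ccl20 turned to -0.01 and -0.20.

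The make-up of the CC chemokine counts differed between the groups. Summed over the 10 genes, the level was 1041 ± 172 CPM in irradiated DE2, 223 ± 44.5 CPM in irradiated WT, 355 ± 177 CPM in untreated DE2 and 216 ± 57.0 CPM in untreated WT (SD, n = 3). Ccl8 took 50.02% of the summed counts in irradiated DE2, 69.3% in irradiated WT, 31.6% in untreated DE2 and 38.7% in untreated WT. Ccl4 took 30.5% in irradiated DE2, 2.09% in irradiated WT, 0.461% in untreated DE2 and 0.292% in untreated WT. Ccl3 added 15.01% in irradiated DE2 and no more than 2.41% in any library outside it. Ccl27a went the other way, with 1.82% in irradiated DE2, 23.6% in irradiated WT, 61.8% in untreated DE2 and 51.6% in untreated WT. Irradiated DE2 libraries were not alike: Ccl8 took 33.8%, 48.5% and 67.8% of their member counts, and Ccl4 took 40.8%, 31.2% and 19.5%.

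**Figure D3:**
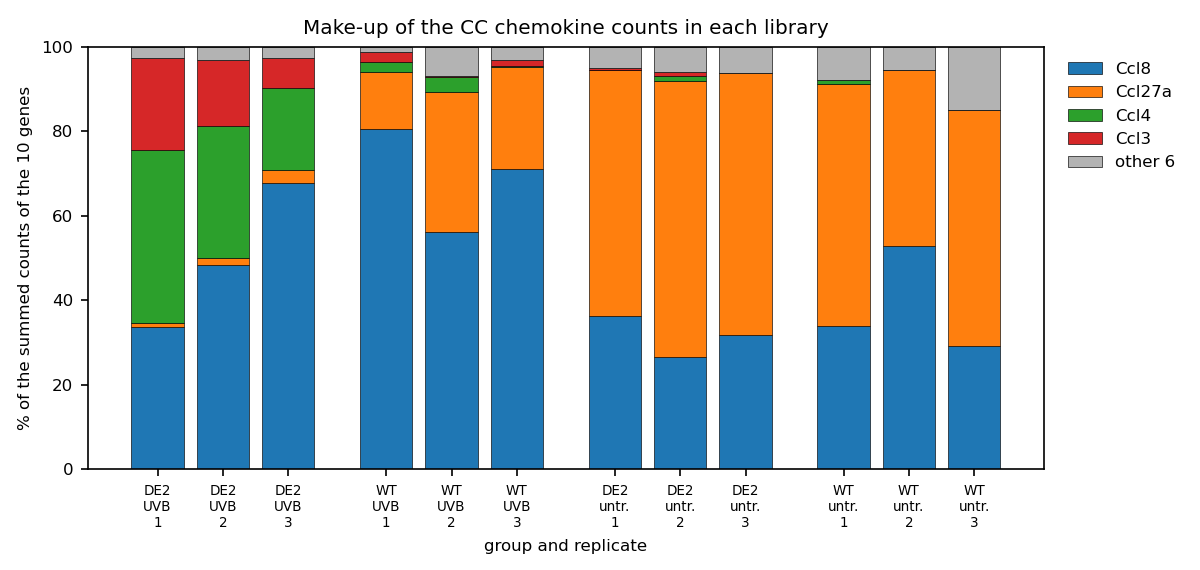
Share of the summed counts of the 10 CC chemokines (%, stacked bars to 100) that each gene took in each of the 12 libraries, with the 6 scarcer genes in grey. Ccl27a and Ccl8 fill the untreated bars, Ccl8 leads in irradiated WT, and Ccl4 and Ccl3 together are visible blocks in the irradiated DE2 libraries, where Ccl8 takes 33.8% to 67.8%.

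Levels of different genes can be compared per length. In CPM per kilobase of exon, Ccl8 led in irradiated DE2 at 986 ± 222, before Ccl4 at 497 ± 249 and Ccl3 at 213 ± 134, and the spreads of Ccl4 and Ccl3 overlapped. Ccl8 was also first on this scale in irradiated WT (296 ± 27.5). In untreated skin the order of the top pair depended on the length used for Ccl27a, whose annotated exons include retained introns. Per kilobase of all exons Ccl8 led with 229 ± 147 in untreated DE2 and 173 ± 103 in untreated WT, ahead of Ccl27a with 90.8 ± 39.9 and 45.7 ± 4.65. Per kilobase of the median protein-coding transcript Ccl27a led at both sites, with 424 in untreated DE2 and 213 in untreated WT.

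Receptor transcripts were examined from a list of 11 CC receptors, of which 5 passed the filter. Between irradiated DE2 and irradiated WT 1 was higher and none lower, beside 2.35% and 0.608% of all genes, with a list median of 0.50. That gene was Ccr1, a receptor of Ccl3, with 87.5, 67.9 and 25.4 CPM in irradiated DE2 and 15.5, 4.66 and 2.12 CPM in irradiated WT (log2 fold change 3.01 ± 0.70; edgeR adjusted p = 0.031). Ccr1 was also higher in irradiated than in untreated DE2 skin, by 2.81 ± 0.69 (edgeR adjusted p = 0.00731). Its irradiated DE2 libraries had the same order as those of Ccl3 and Ccl4, with library 1 highest and library 3 lowest. Ccr2, the receptor of Ccl2, Ccl7 and Ccl12, had 16.2, 16.6 and 20.7 CPM in irradiated DE2 and 13.1, 16.7 and 12.1 CPM in irradiated WT (interval -0.63 to 1.34; edgeR adjusted p = 0.79).

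Ccr4, the receptor of Ccl17 and Ccl22, was lower in irradiated DE2 (0.271, 3.61 and 2.54 CPM) than in untreated DE2 (19.2, 6.77 and 9.69 CPM), by -2.45 ± 0.78 on the log2 scale (edgeR adjusted p = 0.029). The receptors of Ccl8, Ccl20 and Ccl27a were below the filter. Ccr8 had 20 counts in irradiated DE2, 18 in irradiated WT and 0 at both untreated sites. Ccr6 had 11, 2, 0 and 4 counts in irradiated DE2, irradiated WT, untreated DE2 and untreated WT, and Ccr10 had 2, 0, 0 and 13 in the same order. The Ccr8 counts came from 2 of 3 libraries in each irradiated group, and the Ccr10 counts in untreated WT from all 3 libraries. None of the 3 receptors was tested.

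Among the 4 atypical receptors, which bind chemokines or other ligands without classical signalling, none passed between irradiated DE2 and irradiated WT. Ccrl2 had 62.0, 36.9 and 31.2 CPM in irradiated DE2 and 7.64, 7.60 and 2.42 CPM in irradiated WT, apart but not called (2.87 ± 0.77; edgeR adjusted p = 0.0614). Ackr2, a scavenger of inflammatory CC chemokines, had 0, 1.45 and 3.63 CPM in irradiated DE2 and 6.55, 0 and 9.68 CPM in irradiated WT (-1.71 ± 1.13; edgeR adjusted p = 0.544). Ackr4, a scavenger of Ccl19, Ccl21 and Ccl25, was lower in irradiated DE2 (0.812, 6.99 and 7.98 CPM) than in untreated DE2 (66.5, 57.8 and 41.3 CPM), by -3.40 ± 0.55 (edgeR adjusted p = 0.000448). It was the 1 atypical receptor of 4 that passed in that comparison, where 13.4% of all genes were lower. None of the receptors on either list passed in untreated skin, in WT skin with UVB or in the interaction.

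**Figure D4:**
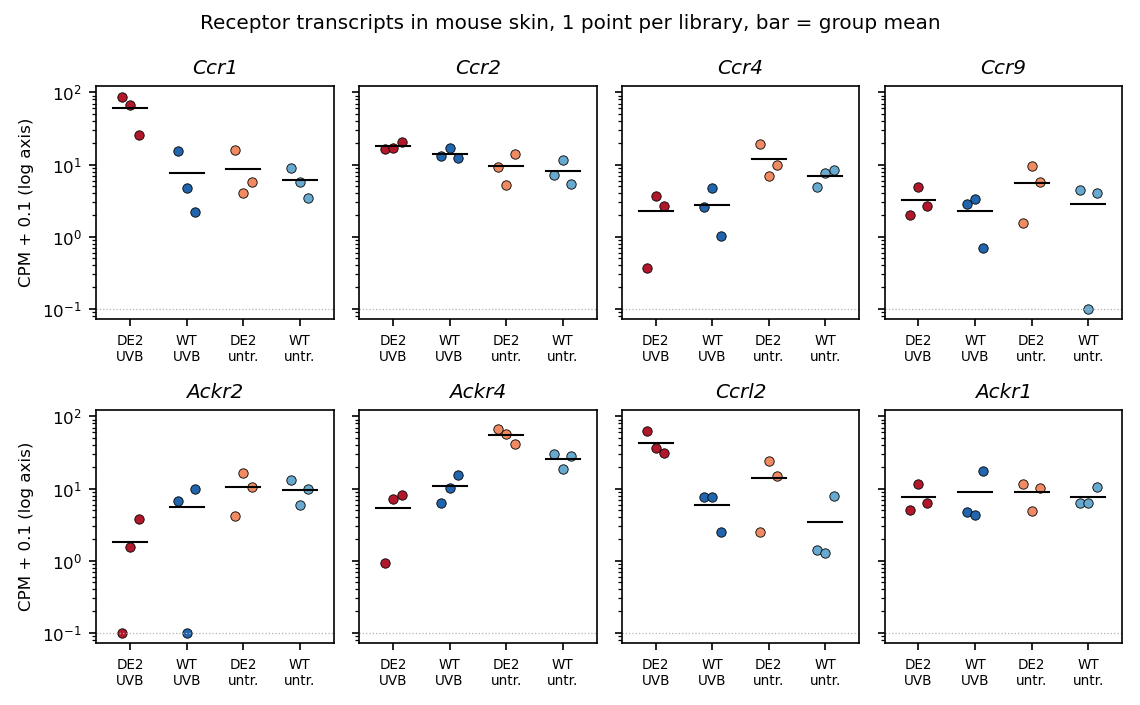
Level of 4 CC receptors (top row) and 4 atypical receptors (bottom row) in each library (CPM plus 0.1, log axis), with 1 point per library and a bar at each group mean. Ccr1 reaches 25.4 to 87.5 CPM in irradiated DE2 and at most 16.0 CPM elsewhere, while Ccr4 and Ackr4 are lower in irradiated than in untreated DE2 libraries.

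A list of 14 other CC ligands gave 6 tested genes and no call in any of the 5 comparisons. Its median log2 fold change between irradiated DE2 and irradiated WT was 0.77. Ccl5, another ligand of Ccr1, had 7.31, 4.09 and 9.80 CPM in irradiated DE2 and 0, 0 and 1.51 CPM in irradiated WT, apart but not called (3.79 ± 1.30; edgeR adjusted p = 0.15). Ccl6, an abundant myeloid chemokine gene of the mouse, had 258, 195 and 209 CPM in irradiated DE2 and 178, 95.6 and 93.2 CPM in irradiated WT (0.85 ± 0.34; edgeR adjusted p = 0.228).

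Cytokines known to induce CC chemokines were read from a list of 18, of which 10 were tested. In irradiated skin Il1b, Osm and Il33 were higher in irradiated DE2 than in irradiated WT, with a list median of 2.49. Of all genes 2.35% were higher there. Il1b, which encodes the inflammatory cytokine interleukin 1 beta, had 1154, 813 and 290 CPM in irradiated DE2 and 11.5, 11.3 and 9.38 CPM in irradiated WT. Osm, encoding oncostatin M, had 134, 144 and 39.2 CPM in irradiated DE2 and 0, 0 and 0.303 CPM in irradiated WT (edgeR adjusted p = 0.000209). Within DE2, 8 of the 10 were higher in irradiated than in untreated skin and none lower, beside 14.4% and 13.4% of all genes. Among the 8 were Il1b (6.93 ± 0.79), Il36a (3.90 ± 0.59) and Tnf (4.10 ± 1.26), with edgeR adjusted p of 3.8e-05, 0.000275 and 0.0255. A gene that is high in 1 group can pass the low-count filter through that group, so these counts describe the genes only. In untreated skin, where 11.8% of all genes were higher in DE2, Il1b and Il33 were higher by 3.18 ± 1.05 and 1.93 ± 0.36 (edgeR adjusted p = 0.0435 and 0.00185). In the interaction, where 5.64% of all genes were higher, only Il33 passed on this list (2.09 ± 0.51; edgeR adjusted p = 0.0192). Between irradiated and untreated WT skin none did. Of 10 NF-kB factors and inhibitors none passed between irradiated groups. Within DE2 the co-activator gene Bcl3 was higher in irradiated skin by 1.92 ± 0.60 and Relb lower by -1.27 ± 0.41 (edgeR adjusted p = 0.0257 and 0.0293). Relb was also higher in untreated DE2 than in untreated WT, by 1.64 ± 0.41 (edgeR adjusted p = 0.01).

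Markers of other cells differed between the same groups as the chemokines. In bulk RNA, fewer cells of a type and less RNA per cell cannot be told apart. The 8 neutrophil markers together took 0.416% to 0.452% of counts in irradiated DE2, 0.0207% to 0.0400% in irradiated WT, 0.000886% to 0.0132% in untreated DE2 and 0.00372% to 0.00594% in untreated WT. That sum is mostly S100a8 and S100a9, and scarcer markers were less even across the irradiated DE2 libraries. From library 1 to 3, Cxcr2 had 31.7, 22.4 and 1.81 CPM and Csf3r had 37.9, 36.9 and 6.90 CPM. Retnlg had 56.6, 24.8 and 3.99 CPM. Clec4d and Mmp8 also fell from library 1 to 3, the order of Ccl3 and Ccl4. S100a8 rose in that order, and S100a9 was highest in library 2. Ly6g, a defining neutrophil gene, was at 0 in all groups but irradiated DE2, where 1 library held its counts. Of the 6 neutrophil markers tested, 4 were higher in irradiated DE2 than in irradiated WT, and all 6 were higher in irradiated than in untreated DE2. Of all genes 2.35% were higher and 0.608% lower between the irradiated groups, and 14.4% were higher within DE2. Retnlg, Clec4d, Csf3r and Cxcr2 were scarce outside irradiated DE2 and can pass the low-count filter through that group, so these counts describe the genes only. The 8 monocyte and macrophage markers took 0.104% to 0.119% in irradiated DE2, 0.0390% to 0.0752% in irradiated WT, 0.0335% to 0.0815% in untreated DE2 and 0.0224% to 0.0628% in untreated WT, with none at 0 in any group. That sum is mostly Lyz2 and, in irradiated DE2, Cd14. Between irradiated groups 2 of these 8, Cd14 and Ly6c2, were called higher in DE2. The macrophage markers Adgre1 and Csf1r overlapped between the irradiated groups, while the other markers on this list lay apart. Keratinocyte markers took 1.92% to 2.49% in irradiated DE2 and 0.449% to 0.670% in irradiated WT, with 3 of 6 higher in DE2. Hair follicle markers took 0.733% to 1.15% in irradiated DE2 and 1.61% to 2.30% in irradiated WT, with no overlap, and 1 of the 9 tested, Lef1, was lower in DE2. The part of these cells in the Ccl3, Ccl4, Ccl7, Ccl8 and Ccl27a results was not tested.

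T cell markers took 0.00726% to 0.00874% of counts in irradiated DE2, 0.00192% to 0.00288% in irradiated WT, 0.00207% to 0.00575% in untreated DE2 and 0.00215% to 0.00382% in untreated WT. Trbc2 was the largest part of that sum. Trbc2 and Cd3g lay apart between the irradiated groups, while Cd3e and Cd3d overlapped. Of the 7 tested, 2 were higher in irradiated DE2 than in irradiated WT, beside 2.35% of all genes. Within DE2, 1 of the 7 was higher in irradiated skin, beside 14.4% of all genes. Dendritic and Langerhans cell markers overlapped, at 0.0461% to 0.0575% in irradiated DE2 and 0.0465% to 0.0613% in irradiated WT, and so did the low levels of Ccl17 and Ccl22, which dendritic cells produce. That marker sum is mostly H2-Ab1 and Epcam. Cd207, a Langerhans cell marker, had 3.25, 1.20 and 3.27 CPM in irradiated DE2 and 26.0, 9.59 and 11.4 CPM in untreated DE2. In WT it had 3.27, 0 and 0.605 CPM in irradiated and 11.7, 4.17 and 8.30 CPM in untreated skin. All 3 natural killer cell markers were at 0 in every group but irradiated WT, where they took at most 4.75e-05% of counts.

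Genes with the most similar pattern to each CC chemokine were found by the root mean square difference of centred log2 CPM over the 12 libraries, among 14858 genes. For Ccl3 the closest were Il1b (0.93), Sprr2b (1.15) and Acod1 (1.22), and for Ccl4 they were Sprr2b (1.04), Clec4e (1.30) and Trem1 (1.43). Il1b, like Ccl3, was highest in irradiated DE2 library 1. Ccl8 had nearer neighbours: Coro1a (0.33), Fcer1g (0.40) and Wfdc17 (0.45). Ccl27a was nearest to Alox12e (0.36), Sult5a1 (0.39) and Bbox1 (0.43), and Ccl7 to Ankrd37 (0.43), Ltb4r1 (0.45) and Gm45640 (0.52). The scarce genes matched less closely or matched other scarce transcripts, from Ccl22 with 9930111J21Rik2 (0.47), AA386476 (0.53) and Gm37524 (0.59) to Ccl2 with 2810428J06Rik (0.59), Lmntd2 (0.65) and Gm37899 (0.92). Ccl12 was nearest to Batf (0.83), Lrrc17 (0.88) and Ebi3 (0.89), and Ccl20 to Ascl2 (0.88), H60b (0.94) and Clca3a1 (0.94). Among the chemokines themselves the closest pair was Ccl7 with Ccl8 (1.02) and the farthest Ccl4 with Ccl27a (5.004), while Ccl3 and Ccl4 were 1.59 apart.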

How the data were processed

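RNA of mouse skin was sequenced in bulk in 12 libraries. The deposited values are unnormalized read counts for each Ensembl gene, which the authors made with HTSeq 2.0.2 after Trimmomatic 0.39, SAMtools 1.16 and Picard 3.1.0 on build GRCm38, per the submitters' processing notes. No source used here gives the aligner, the strand setting or how multi-mapped and duplicate reads were handled, so a count of Ccl2, which lies within a gene on the opposite strand, cannot be assigned to a strand. Ccl27a meets an opposite-strand gene, Il11ra1, only at its end. Symbols and coordinates came from GENCODE M21, and 53360 of 53465 identifiers had a symbol. Libraries were grouped by the genotype and treatment labels, and replicate numbers follow accession order only. No 2 libraries held identical counts.

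From the counts, edgeR 4.0.16 (R 4.3.3) fitted 1 mean per group to all 12 libraries by robust quasi-likelihood, with TMM scaling and edgeR's low-count filter, which kept 15126 genes and left 8 residual degrees of freedom. The 5 contrasts were adjusted by Benjamini-Hochberg over all genes, with a threshold of 0.05. SEs were worked back from the F statistic and the 95% intervals use a t distribution on 8 degrees of freedom, so both are approximate. The fit was also run on simulated counts drawn with its own estimates of spread, with changes planted only above a minimum mean level. That run does not cover the scarcest genes, and its outcome is not given here. A group at 0 counts was given a floor of 3 counts over the group, and such floors cover counting error in that group only. Log2 CPM for pattern likeness used a prior count of 1.

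The members, lists and tests were chosen with earlier results of these data known. Every member is named, and 1 receptor within the naming rule is not reported here. From the lists of receptors, cytokines and NF-kB genes the rule named genes past the threshold, up to 6 a list, and receptors of members. Ccl5, Ccl6, Ccrl2, Ackr2 and the examples of marker genes were chosen after their values were seen. The 22 alternatives covered scaling, filter, tool (DESeq2 1.42.0, limma 3.58.1), libraries in the fit, tissue-share covariates and left-out libraries.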

Additional observations from a re-analysis of the deposited data

Results flagged for a closer look

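The change of Ccl27a from untreated to irradiated skin, which also differ in site, differed between the genotypes. The interaction was -2.61 on the log2 scale (SE 0.58; edgeR adjusted p = 0.0124), from -3.60 ± 0.45 in DE2 and -0.98 ± 0.40 in WT. Among the 9 CC chemokines tested it was the 1 gene called in the interaction, where no value is given for Ccl3. Between the irradiated groups themselves Ccl3, Ccl4, Ccl7 and Ccl8 were called, and Ccl27a was not. Of all genes 5.64% passed with a higher and 4.84% with a lower interaction, so 1 call among 9 genes is near the share of all genes. The Ccl27a interaction rests in part on the untreated DE2 libraries, in which hair follicle markers took 0.00795% to 0.0561% of counts and muscle markers 4.64% to 7.81%. With the hair follicle share as covariate the adjusted p was 0.31, and 0 of the 15126 genes kept an interaction call. With the muscle share it was 0.149, and 30 genes were called lower, in place of 732. The part of tissue make-up in this difference was not tested further, and the near-identical copies of Ccl27a leave its count uncertain. Leaving out each of the 12 libraries in turn kept the call, with values from -3.03 to -2.03.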

How the results depend on the processing

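No paired analysis was possible because the labels tie no library to an animal and the replicate numbers only follow accession order. Over 22 alternatives (21 for the interaction), 846 of the values of single genes kept their direction and side of the threshold, 29 lost the call, 31 gained one and 40 changed sign; the causes were not tested. Every alternative was run. Ccl3 has no interaction value, the fit of only the libraries compared has no interaction, and 14 further values are missing because a gene fell below the filter: all 5 of Ccl12 under the stricter filter, and 9 of Ccl3, Ccl4, Ccl12, Ccl20 and Ccl22 with only the libraries compared.

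Counts of CC chemokines called moved as follows. For irradiated DE2 over irradiated WT, 4 higher became 2 with total-count scaling and 2 to 4 when leaving out 1 library, and 0 lower became 1 with no filter or DESeq2 and 0 to 1 when leaving out 1 library. For UVB in DE2, 3 higher became 5 with limma voom, 1 with the muscle covariate and 0 with the hair follicle covariate, and 1 lower became 2 with no filter, DESeq2 or only the libraries compared, and 0 with the hair follicle covariate. For UVB in WT, 0 became 2 higher and 1 lower with no filter. In untreated skin 0 higher became 2 with no filter, 1 with DESeq2, limma voom or only the libraries compared, and 0 to 2 when leaving out 1 library. In the interaction 0 higher became 2 with no filter, 2 without both irradiated WT library 2 and untreated DE2 library 1, and 0 to 1 when leaving out 1 library, while 1 lower became 0 with either covariate. With the hair follicle covariate no gene of any kind was called for UVB in DE2, in untreated skin or in the interaction.

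Signs changed as follows, on the log2 scale, in 1 called gene (Ccl8) and otherwise in genes that were not called. With the hair follicle covariate, UVB in DE2 gave -0.845 for Ccl8, which had been called higher, and -3.09 for Ccl12; the interaction gave -1.37 for Ccl8, -2.49 for Ccl12 and -1.91 for Ccl22; untreated skin gave -5.23 for Ccl4 and 2.72 for Ccl22. With the muscle covariate, Ccl20 was 0.858 in irradiated skin, -2.40 in untreated skin, 0.675 for UVB in DE2 and 3.26 in the interaction, and in untreated skin Ccl4 was -1.02 and Ccl7 -0.0150. Total-count scaling gave -0.00548 for Ccl7 and -0.200 for Ccl20 in untreated skin. With limma voom Ccl20 was 0.000918 in irradiated skin and Ccl12 0.148 for UVB in WT. Without both irradiated WT library 2 and untreated DE2 library 1, Ccl20 was 2.29 in irradiated skin and 2.13 in the interaction, Ccl8 was -0.262 and Ccl12 -1.03 in untreated skin, and Ccl22 was 0.221 for UVB in DE2.

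When leaving out 1 library, irradiated DE2 over irradiated WT ran from -2.10 to 2.29 for Ccl20 and from -0.327 to 1.14 for Ccl22. In untreated skin DE2 over WT ran from -0.518 to 5.25 for Ccl4, -0.263 to 0.933 for Ccl8, -1.03 to 1.27 for Ccl12, -0.352 to 1.51 for Ccl20 and -1.09 to 0.166 for Ccl22. The Ccl4 range includes the fit without untreated WT library 1, which left that group at 0 counts and gives no size. UVB in DE2 ran from -1.35 to 0.221 for Ccl22, and UVB in WT from -2.41 to 0.115 for Ccl2 and -0.622 to 0.216 for Ccl12. The interaction ran from -2.20 to 2.12 for Ccl20 and -0.0969 to 1.45 for Ccl22, which was 2.23, with its sign kept, without both libraries named above. With a prior count of 5, the nearest genes by pattern shared 0 to 2 of 3 names with those given.

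Depth limits Ccl2, Ccl12, Ccl17, Ccl20 and Ccl22, each at 61 counts or fewer in any library, and the intervals of the 4 that were tested are wide.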
